A study of Cucumis sativus with 12 samples.

Results

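A set of 4 cucumber genes, named for the handling of phosphate and phosphorylated compounds, was followed over 24 h of cold in leaves: inorganic pyrophosphatase 2-like (CsaV3_7G034880), inorganic pyrophosphatase 3 (CsaV3_1G040240), phosphoenolpyruvate carboxylase kinase 1 (CsaV3_1G045430) and putative glycerol-3-phosphate transporter 5 (CsaV3_1G028430). They are 4 of the 24317 genes in the deposited table, chosen by their gene identifiers, and they were chosen because of how their levels moved in these same libraries. Their own levels and changes are therefore given as descriptions without a test. Tests are given only for other genes.

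Messenger RNA was sequenced from the leaves of cucumber (Cucumis sativus) seedlings in 12 libraries, 3 at each of 4 durations of cold. The leaves were the second and the third fully expanded ones, of seedlings at the third true leaf. All 12 came from seedlings sprayed with chitosan oligosaccharide (COS), short chains derived from chitosan, at 50 mg/L and kept for 24 h at 28 °C by day and 18 °C by night. The groups are the leaves taken at that point (0 h) and the leaves taken after 3, 12 and 24 h at 12 °C by day and 6 °C by night. Leaves of water-sprayed seedlings were not analysed here, and cold cannot be told apart from time since the spray. The hour of the day at which leaves were taken is not stated. At 3 h and 12 h, time of day cannot be told apart from cold either, while leaves of 24 h and 0 h were taken at the same hour of the day if the cold began at the same hour for all seedlings. Nothing in the labels ties the libraries to separate plants, so that p-values measure only how far these libraries spread, which may be a technical spread.

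Plants that run short of free phosphate release it from phosphorylated metabolites and lipids and route carbon around steps that consume phosphorylated nucleotides. Pyrophosphate can stand in for ATP at several steps of sugar breakdown, and pyrophosphatases split it into free phosphate. PEP carboxylase turns phosphoenolpyruvate (PEP) into oxaloacetate with release of phosphate, and PEP carboxylase kinase phosphorylates that enzyme, which makes it less sensitive to inhibition by malate. Glycerol-3-phosphate is a backbone of phospholipids and a product of their breakdown, and plant proteins named glycerol-3-phosphate transporters belong to a family of membrane carriers of organic phosphates.

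The deposited annotation of the first pair goes against the name pyrophosphatase. Both genes carry the enzyme number EC 3.1.3.74, that of a phosphatase of pyridoxal phosphate, with the term phosphatase activity. No other gene in the table carries that number alone, and entries with several numbers were not searched for it. The number of inorganic diphosphatase, EC 3.6.1.1, was given to 12 other genes and to neither gene of the pair. In Arabidopsis, proteins named inorganic pyrophosphatase 1 and 2 belong to the haloacid dehalogenase type of phosphatase. The names below are those of the rows and say nothing of the substrate. The kinase row carries the term protein kinase activity, and the transporter row the term transmembrane transporter activity.

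By the table's coordinates, for which no genome build is given, inorganic pyrophosphatase 2-like lies on chromosome 7 at 22066092 to 22068172 on the minus strand. Inorganic pyrophosphatase 3 lies on chromosome 1 at 25513231 to 25515584 on the plus strand. PEP carboxylase kinase 1 lies on chromosome 1 at 31223650 to 31225713 and glycerol-3-phosphate transporter 5 on chromosome 1 at 15461792 to 15464470, both on the minus strand. These are whole-gene spans, and none of the 4 overlaps another gene of the table.

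Libraries held 62.7 to 81.6 M units of estimated count (M, 10 to the power of 6), or about 16.4 to 21.3 M fragments. Across genes, which are not independent replicates, log2 expression correlated at 0.9808 to 0.985 within each of the first 3 groups, and only at 0.9616 to 0.9765 within the 24 h group. The 23 marker genes of photosynthetic leaf cells summed to 28144 FPKM or more in every library (FPKM, fragments scaled to transcript length and library size). Of the 7 root-type genes, both casparian strip genes, defining markers of root endodermis, stayed at 0.695 FPKM or below, but the whole list summed to between 13.8 and 85.7 FPKM, with up to 4 genes at a group mean of at least 1 FPKM. Leaf marker sums also moved with time, between 32292 and 34050 FPKM at 0 h, 44745 and 45619 at 3 h, 53707 and 58148 at 12 h and 28144 and 32173 at 24 h. In such bulk samples, fewer cells of a type and less RNA per cell cannot be told apart.

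Inorganic pyrophosphatase 2-like had the widest swings of the 4 genes. It was at a low level before the cold, high after 3 h, low again after 12 h and high again after 24 h. Its level was 15.9, 15.6 and 15.2 FPKM in the 0 h libraries, 585, 626 and 586 FPKM at 3 h, 39.8, 39.3 and 53.0 FPKM at 12 h, and 235, 312 and 498 FPKM at 24 h. No library of any duration overlapped those of another, and the order of the group means was 3 h, 24 h, 12 h, 0 h from high to low. Absence of overlap was common: it held with higher levels for 35.0% of tested genes at 3 h, 36.1% at 12 h and 33.8% at 24 h against 0 h, and with lower levels for 34.9%, 40.1% and 41.0%. Between later durations it held with higher and with lower levels for 31.2% and 37.1% of genes at 12 h against 3 h, 31.5% and 37.6% at 24 h against 3 h, and 25.7% and 30.9% at 24 h against 12 h. The share of genes without overlap in every pair of durations at once was not computed.

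Mean levels of inorganic pyrophosphatase 2-like were 599 ± 23.3 FPKM at 3 h, 44.0 ± 7.72 at 12 h and 348 ± 135 at 24 h, against 15.6 ± 0.374 FPKM at 0 h (SD, n = 3 each). The 3 h mean was 38.5 times that of 0 h, a log2 fold change of 5.26 (SE 0.25), and 48 of 16432 tested genes had a larger one. The log2 fold change against 0 h was 1.55 (SE 0.22) at 12 h and 4.54 (SE 0.24) at 24 h. Between neighbouring durations, the gene was lower at 12 h than at 3 h by a log2 fold change of -3.71 (SE 0.23), and higher at 24 h than at 12 h by 2.98 (SE 0.23). Over the 12 libraries its mean level lay above that of 98.0% of tested genes.

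Inorganic pyrophosphatase 3 shared the annotation but not the course. It had 9.83, 8.56 and 10.5 FPKM at 0 h, 6.01, 5.11 and 5.39 FPKM at 3 h, 3.20, 4.27 and 3.80 FPKM at 12 h, and 7.86, 6.18 and 4.53 FPKM at 24 h. It was highest before the cold and lowest at 12 h, and the 24 h and 3 h libraries overlapped, so their order is not set beyond the spread. Every other pair of durations was without overlap. The library with the fewest reads of it, at 12 h, had about 38.0 fragments, so counting error is larger here than for the 2-like gene.

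Mean levels of inorganic pyrophosphatase 3 were 5.50 ± 0.461 FPKM at 3 h, 3.76 ± 0.537 at 12 h and 6.19 ± 1.67 at 24 h, against 9.63 ± 0.993 FPKM at 0 h (SD, n = 3 each). The log2 fold change against 0 h was -0.81 (SE 0.21) at 3 h, -1.30 (SE 0.21) at 12 h and -0.58 (SE 0.21) at 24 h. It was -0.49 (SE 0.21) at 12 h against 3 h and 0.72 (SE 0.21) at 24 h against 12 h. In rank these are common sizes of change: at 3 h, 2088 tested genes had a lower log2 fold change. Of the summed FPKM of the pair, inorganic pyrophosphatase 2-like made up 61.8% ± 2.72 at 0 h, 99.1% ± 0.103 at 3 h, 92.0% ± 1.62 at 12 h and 98.0% ± 1.17 at 24 h (SD, n = 3 each).

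PEP carboxylase kinase 1 followed the same order of durations as inorganic pyrophosphatase 2-like, with smaller swings. Its level was 8.92, 7.06 and 10.2 FPKM at 0 h, 97.4, 119 and 91.0 FPKM at 3 h, 18.2, 11.5 and 13.0 FPKM at 12 h, and 26.6, 36.7 and 52.2 FPKM at 24 h. No pair of durations overlapped, although at 12 h the lowest library (11.5 FPKM) stood close to the highest of 0 h (10.2 FPKM).

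Mean levels of the kinase were 103 ± 14.9 FPKM at 3 h, 14.2 ± 3.55 at 12 h and 38.5 ± 12.9 at 24 h, against 8.74 ± 1.59 FPKM at 0 h (SD, n = 3 each). The 3 h mean was 11.7 times that of 0 h, a log2 fold change of 3.55 (SE 0.25), with 161 tested genes above it. The log2 fold change against 0 h was 0.75 (SE 0.24) at 12 h and 2.19 (SE 0.24) at 24 h. It was -2.80 (SE 0.25) at 12 h against 3 h and 1.44 (SE 0.24) at 24 h against 12 h.

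Glycerol-3-phosphate transporter 5 was the least abundant of the 4 and reached its highest level at 24 h, not at 3 h. It had 2.12, 2.12 and 2.22 FPKM at 0 h, 4.36, 4.67 and 4.10 FPKM at 3 h, 2.99, 3.23 and 3.72 FPKM at 12 h, and 7.20, 5.98 and 5.32 FPKM at 24 h. No pair of durations overlapped, and the order from high to low was 24 h, 3 h, 12 h, 0 h. Only 26.4% of tested genes had a lower mean level over the 12 libraries, against 84.9% for the kinase and 37.1% for inorganic pyrophosphatase 3.

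Mean levels of the transporter were 4.38 ± 0.285 FPKM at 3 h, 3.31 ± 0.371 at 12 h and 6.17 ± 0.955 at 24 h, against 2.15 ± 0.0607 FPKM at 0 h (SD, n = 3 each). The log2 fold change against 0 h was 1.02 (SE 0.13) at 3 h, 0.67 (SE 0.13) at 12 h and 1.57 (SE 0.14) at 24 h. It was -0.35 (SE 0.13) at 12 h against 3 h and 0.90 (SE 0.13) at 24 h against 12 h. Its changes had the smallest standard errors of the 4 genes.

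**Figure D1:**
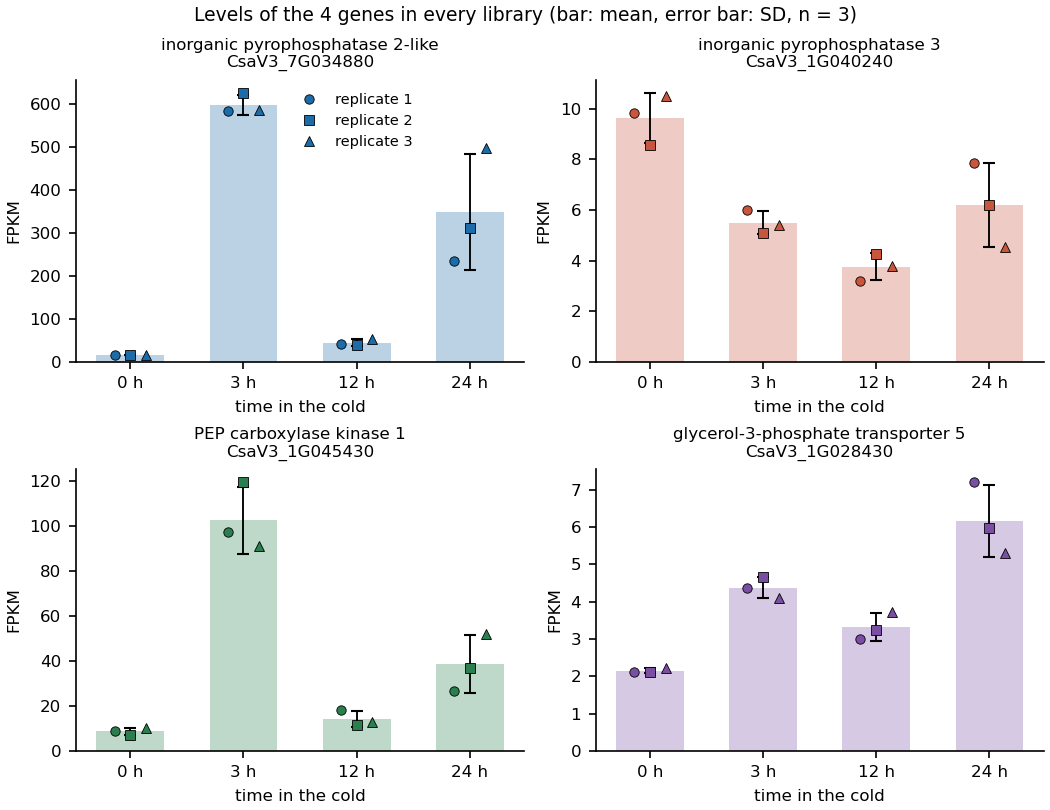
FPKM of the 4 genes in each of the 12 libraries by time in the cold, with bars for the mean and error bars for the SD of 3 libraries; each panel has its own linear axis from 0. Inorganic pyrophosphatase 2-like and PEP carboxylase kinase 1 peak at 3 h (599 and 103 FPKM) with a further high at 24 h (348 and 38.5 FPKM), the transporter is highest at 24 h (6.17 FPKM), and inorganic pyrophosphatase 3 is lowest at 12 h (3.76 FPKM).

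Large parts of the transcriptome moved at the same time, and the 4 genes are to be read against that. In the edgeR quasi-likelihood test, 57.7% of tested genes changed at 3 h against 0 h, 67.4% at 12 h and 74.2% at 24 h (adjusted p below 0.05, two-sided). Against 0 h, 29.4% rose and 28.3% fell at 3 h, 34.4% rose and 33.0% fell at 12 h, and 36.2% rose and 37.9% fell at 24 h. The comparisons with 0 h share the same 3 libraries and are not independent of each other.

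The shapes of the courses are described by the order of the group means, without a test. Of the 16432 tested genes, 21.8% had their highest group mean at 3 h, and 6.76% had it there with a lower mean at 12 h than at 24 h, as inorganic pyrophosphatase 2-like and the kinase did. The weaker condition of 3 h above 0 h, 12 h below 3 h and 24 h above 12 h, which the transporter also met, held for 13.4% of genes. The lowest mean lay at 12 h, as for inorganic pyrophosphatase 3, in 18.5% of genes. The 4 genes were chosen on these courses, and nothing is read from the shares.

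**Figure D2:**
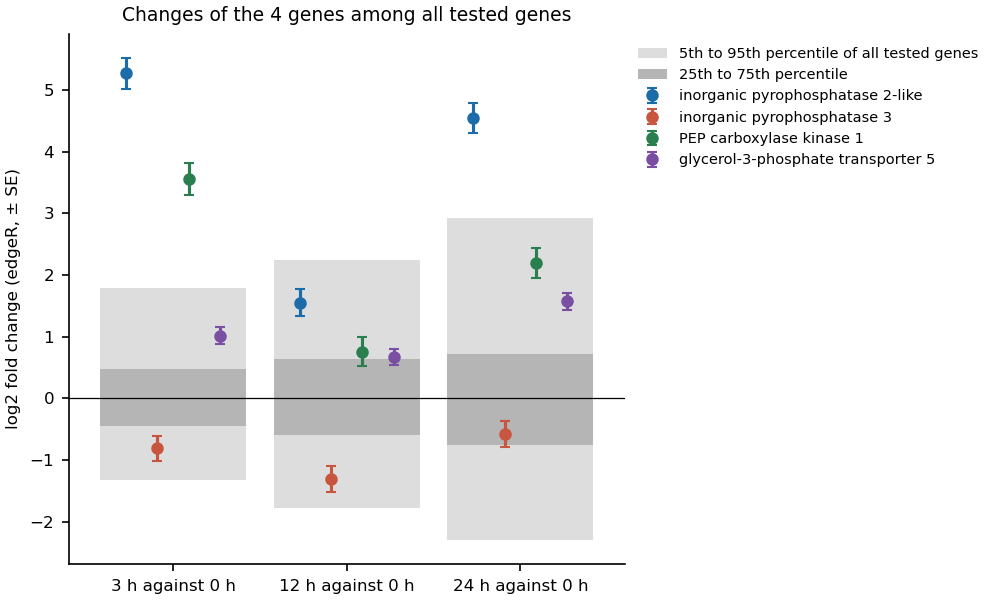
Log2 fold change with its standard error (edgeR) of the 4 genes at 3, 12 and 24 h against 0 h, over grey boxes that hold the 5th to 95th and the 25th to 75th percentiles of all 16432 tested genes. Inorganic pyrophosphatase 2-like lies above the outer box at 3 h (5.26) and 24 h (4.54) and inside it at 12 h (1.55); the kinase lies above it at 3 h alone (3.55), and the transporter and inorganic pyrophosphatase 3 lie within it throughout.

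For each of the 4 genes the 24 h libraries had the widest spread relative to their mean. Replicate 3 was the highest of the 24 h libraries for inorganic pyrophosphatase 2-like (498 FPKM) and the kinase (52.2 FPKM), and the lowest for inorganic pyrophosphatase 3 (4.53 FPKM) and the transporter (5.32 FPKM). Replicate 1 stood at the other end for each of them. The 14 phloem markers summed to 504 FPKM in replicate 1 of 24 h, 1289 in replicate 2 and 1364 in replicate 3, against 276 to 493 FPKM in the 0 h libraries. At 3 h they summed to 310 to 482 FPKM and at 12 h to 357 to 562 FPKM, both overlapping 0 h. The 4 guard cell markers summed to 27.4 to 33.9 FPKM at 0 h, 24.0 to 27.8 at 3 h, 18.4 to 21.9 at 12 h and 8.60 to 10.2 at 24 h. The 25 epidermis markers summed to 634 to 902 FPKM at 0 h, 539 to 590 at 3 h, 379 to 441 at 12 h and 262 to 354 at 24 h. Both lists were thus already below their 0 h libraries at 12 h, and the epidermis list at 3 h. The 7 root-type genes went the other way first, with 42.7 to 45.0 FPKM at 0 h, 54.1 to 65.4 at 3 h, 79.7 to 85.7 at 12 h and 13.8 to 30.6 at 24 h. The part of these shifts in the levels of the 4 genes, and of the other genes named below, was not tested. Without 1 library at a time, the log2 fold change at 24 h against 0 h lay between 4.19 and 4.76 for inorganic pyrophosphatase 2-like, 1.91 and 2.40 for the kinase, 1.45 and 1.67 for the transporter, and -0.79 and -0.40 for inorganic pyrophosphatase 3.

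Genes described as pyrophosphatases of the soluble and proton-pumping kinds had smaller changes at 3 h than the 5.26 of the 2-like gene, a difference that was not tested. The 4 genes described as soluble inorganic pyrophosphatases, which split pyrophosphate, and the 2 proton-pumping pyrophosphatases, which use it to move protons across membranes, were all tested. At 3 h against 0 h, 3 of the 4 soluble genes rose and none fell, with log2 fold changes of 0.30, 0.40 and 0.60 for those that rose, and both pumps fell, by 0.24 and 0.61 on the log2 scale (edgeR, adjusted p below 0.05). At 12 h, 2 soluble genes rose and 1 fell, and no pump changed. At 24 h, 2 soluble genes rose and 1 fell, and 1 pump fell. With so few genes and 57.7% to 74.2% of all genes called, these counts describe the families only.

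The largest rises among the soluble genes came at 24 h. Soluble inorganic pyrophosphatase 4 (CsaV3_4G024730) had 83.9 ± 10.0 FPKM at 24 h, against 12.8 ± 0.930 FPKM at 0 h (SD, n = 3 each), or 2.77 on the log2 scale (SE 0.15, edgeR adjusted p = 6.61e-09). Soluble inorganic pyrophosphatase 1 (CsaV3_6G008400) had 66.7 ± 6.72 FPKM at 24 h, against 18.8 ± 1.68 FPKM at 0 h (log2 fold change 1.88, SE 0.10, edgeR adjusted p = 8.78e-09). At 3 h it had 19.9 ± 1.70 FPKM (edgeR adjusted p = 0.531 against 0 h). The most abundant of the soluble genes at 0 h, CsaV3_6G046410, fell at 24 h to 102 ± 10.1 FPKM, against 166 ± 4.76 FPKM at 0 h (log2 fold change -0.65, SE 0.09, edgeR adjusted p = 2.61e-05). The vacuolar pump 1 gene (CsaV3_2G007000) was near the limit at 3 h against 0 h (log2 fold change -0.61, SE 0.24, edgeR adjusted p = 0.0449), and this call was lost with no filter on low values, with limma and in most fits that left out a library. Calls were also lost for CsaV3_7G033610, the other pump, at 3 h without replicate 3 of 0 h or replicate 1 of 3 h. The same held for CsaV3_6G046410 at 3 h without replicate 2 of 3 h, and for soluble inorganic pyrophosphatase 6 (CsaV3_7G007250) at 12 h without replicate 3 of 0 h or of 12 h.

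The summed level of inorganic pyrophosphatase 2-like and 3 had means of 25.2 ± 0.924, 605 ± 23.0, 47.8 ± 7.76 and 354 ± 134 FPKM at 0, 3, 12 and 24 h (SD, n = 3 each). The summed level of the soluble genes had means of 281 ± 10.96, 354 ± 17.6, 262 ± 15.0 and 335 ± 12.2 FPKM at the same durations. The pair named inorganic pyrophosphatase stood above the soluble genes in summed FPKM at 3 h, and below them at 0 h and 12 h, without overlap. At 24 h the sums of the pair, 243 to 502 FPKM, overlapped those of the soluble genes, 327 to 349 FPKM, so that no order is set there.

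PEP carboxylase kinase 1 had 3 relatives described as PEP carboxylase kinase 1-like, and all 3 rose at 3 h and at 24 h against 0 h. All 3 also fell at 12 h against 3 h and rose at 24 h against 12 h, where 55.5% and 51.9% of tested genes changed (edgeR, adjusted p below 0.05). Of all tested genes, 27.9% rose and 27.6% fell at the first of these steps, and 24.5% rose and 27.4% fell at the second. At 12 h against 0 h, 1 of the 3 rose. Of all tested genes, 29.4% rose at 3 h, 34.4% at 12 h and 36.2% at 24 h against 0 h. CsaV3_3G012120 had 41.0, 44.6 and 41.8 FPKM at 3 h, against 13.2, 12.0 and 13.0 FPKM at 0 h, or 1.73 on the log2 scale (SE 0.22, edgeR adjusted p = 4.12e-05). It rose at 24 h by 1.50 on the log2 scale (SE 0.22, edgeR adjusted p = 6.22e-05). Its 24 h libraries, at 20.5, 34.8 and 48.8 FPKM, overlapped those of 3 h. Its smaller rise at 12 h (0.63, SE 0.22, edgeR adjusted p = 0.0244) lost the call without replicate 2 or 3 of 0 h, or without replicate 2 or 3 of 12 h.

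The other kinase genes, CsaV3_UNG233310 and CsaV3_UNG233320, are neighbours on an unplaced scaffold and had few reads. They rose at 3 h against 0 h by log2 fold changes of 2.43 (SE 0.30, edgeR adjusted p = 3.21e-05) and 3.46 (SE 0.59, edgeR adjusted p = 3.22e-04). In the 0 h libraries CsaV3_UNG233320 had about 14.7, 1.83 and 15.7 fragments, and the fold change is uncertain for that reason. Its rise at 24 h against 12 h lost the call without any 1 of the 12 h libraries, or without replicate 2 or 3 of 24 h. Whether these are parts or copies of a kinase gene placed elsewhere was not tested, and their values are uncertain. In summed FPKM of the 4 kinase genes, PEP carboxylase kinase 1 made up 59.4% ± 0.667 at 3 h, 38.1% ± 5.73 at 12 h and 46.1% ± 2.57 at 24 h, against 34.7% ± 2.70 at 0 h (SD, n = 3 each).

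PEP carboxylase is the enzyme that the kinase is named for, and its 3 genes moved apart. The housekeeping isozyme-like gene (CsaV3_4G033150) had 505, 533 and 481 FPKM at 3 h, against 37.9, 33.8 and 34.0 FPKM at 0 h, or 3.85 on the log2 scale (SE 0.11, edgeR adjusted p = 4.59e-10). It stayed high at 12 h (254 ± 12.7 FPKM) and 24 h (360 ± 58.2 FPKM), with log2 fold changes of 2.90 and 3.41 (edgeR adjusted p = 9.59e-10 and 1.31e-10). At 12 h against 3 h it fell by 0.94 on the log2 scale (SE 0.10, edgeR adjusted p = 9.05e-06). For PEP carboxylase kinase 1 the same step was -2.80, and the difference between these steps was not tested.

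PEP carboxylase 2-like (CsaV3_7G005670), the most abundant of the 3 at 0 h with 703 FPKM, fell at every duration, with log2 fold changes of -0.39, -1.10 and -0.95 at 3, 12 and 24 h (edgeR adjusted p = 1.36e-04, 1.38e-08 and 2.70e-08). PEP carboxylase 4-like (CsaV3_5G028880) rose at 12 h and 24 h to means of 19.8 and 20.7 FPKM, against 5.30 FPKM at 0 h (log2 fold changes 1.95 and 2.02, edgeR adjusted p = 2.22e-06 and 1.21e-06). In summed FPKM of the 3 genes, the housekeeping isozyme-like gene made up 48.2% at 3 h, 43.1% at 12 h and 49.1% at 24 h, against 4.73% at 0 h. The summed level itself had means of 744, 1050, 589 and 731 FPKM at 0, 3, 12 and 24 h.

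The second gene named as a glycerol-3-phosphate transporter had another course than transporter 5. Putative glycerol-3-phosphate transporter 1 (CsaV3_5G005700) had 145, 135 and 156 FPKM at 0 h, 488, 483 and 489 FPKM at 3 h, 27.8, 26.8 and 35.5 FPKM at 12 h, and 106, 138 and 171 FPKM at 24 h. It rose at 3 h against 0 h (log2 fold change 1.74, SE 0.15, edgeR adjusted p = 1.90e-06) and fell at 12 h against 0 h (-2.22, SE 0.16, edgeR adjusted p = 1.31e-07). At 24 h against 0 h its log2 fold change was -0.02 (SE 0.15, edgeR adjusted p = 0.930). Of the summed FPKM of both transporters, transporter 5 made up 0.892% ± 0.0637 at 3 h, 9.99% ± 0.680 at 12 h and 4.51% ± 1.71 at 24 h, against 1.46% ± 0.0676 at 0 h (SD, n = 3 each). The largest share of transporter 5 thus fell on the duration at which transporter 1 was lowest.

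**Figure D3:**
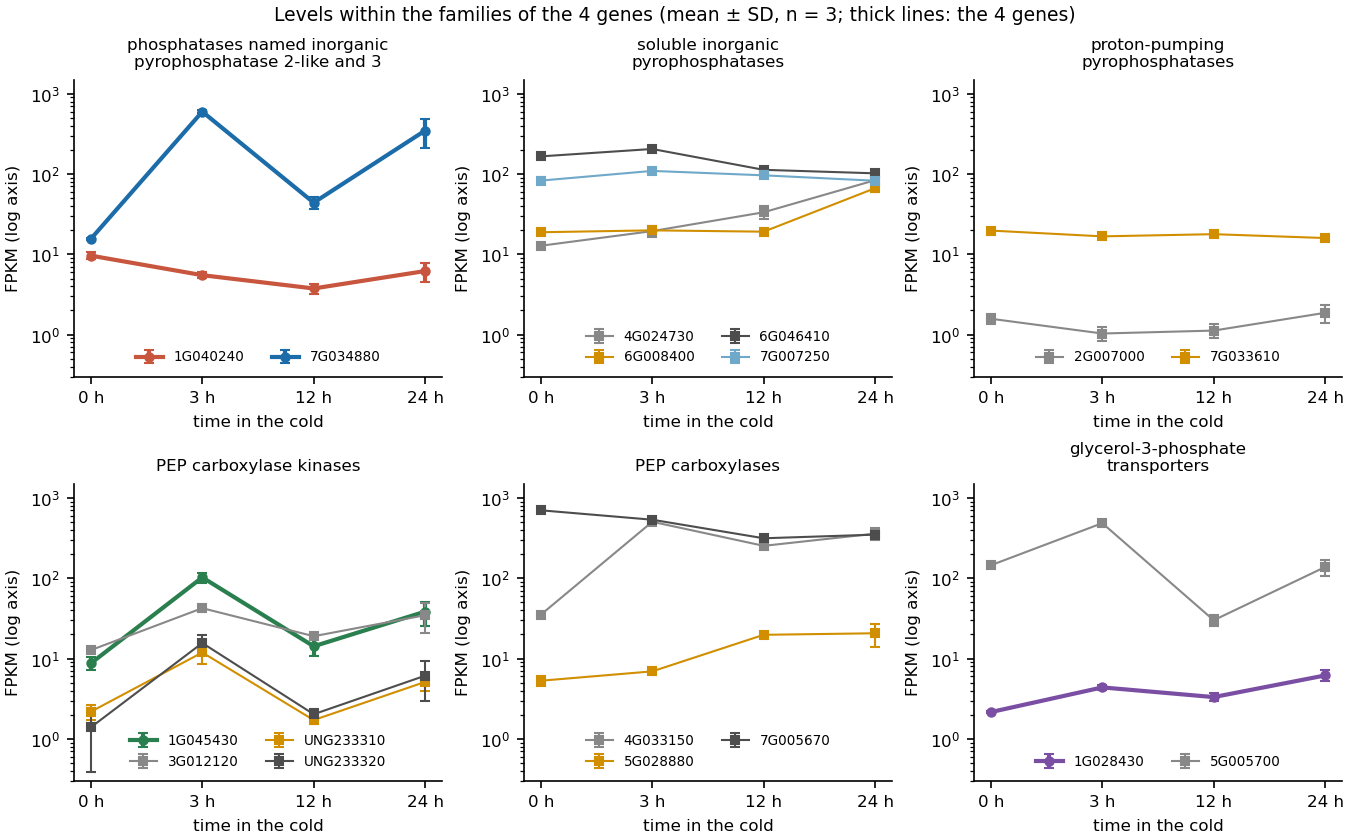
Mean FPKM ± SD (n = 3, log axis) by time in the cold for the 4 genes (thick lines) and the genes of the same or related families (thin lines). The kinase genes have their highest means at 3 h, although the 3 h and 24 h libraries of CsaV3_3G012120 overlap. The PEP carboxylases move apart (housekeeping isozyme-like CsaV3_4G033150 at 506 FPKM at 3 h, against 35.2 FPKM at 0 h). The soluble pyrophosphatases CsaV3_4G024730 and CsaV3_6G008400 climb to 83.9 and 66.7 FPKM at 24 h, and transporter 1 (CsaV3_5G005700) dips to 30.0 FPKM at 12 h.

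Across the 12 libraries, Pearson's r of log2(FPKM + 1) was 0.955 between inorganic pyrophosphatase 2-like and PEP carboxylase kinase 1. It was 0.834 between inorganic pyrophosphatase 2-like and transporter 5 and 0.662 between the kinase and transporter 5. Inorganic pyrophosphatase 3 had r of -0.336, -0.309 and -0.299 with the 2-like gene, the kinase and the transporter. These values describe 12 libraries in 4 groups, where libraries of a group share their time in the cold, and the genes were chosen on these levels.

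The genes most like each of the 4 were taken from 4016 other genes with an informative description, which reached 5 FPKM in their highest group mean and whose group means of log2(FPKM + 1) differed by at least 1. For inorganic pyrophosphatase 2-like, the closest was GDPD1 (CsaV3_3G026730), a glycerophosphodiester phosphodiesterase that releases glycerol-3-phosphate from lipid breakdown products, with r = 0.997. It had means of 5.34, 365, 14.4 and 166 FPKM at 0, 3, 12 and 24 h. Next came squamosa promoter-binding-like protein 6 (r = 0.982), a serine/threonine-protein kinase (CsaV3_6G039470, r = 0.981), the anion channel SLAH2-like (r = 0.979) and kinesin-4-like (r = 0.977). These other 4 were between 6.15 and 18.3 FPKM at 3 h, against 1.10 to 3.35 FPKM at 0 h, far below the 2-like gene.

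For PEP carboxylase kinase 1, the closest were xyloglucan glycosyltransferase 5 (CsaV3_3G047200, r = 0.989) and SPX domain-containing protein 1 (CsaV3_1G030190, r = 0.984), of a family that binds inositol pyrophosphates and takes part in phosphate sensing. SPX domain-containing protein 1 had means of 8.04, 379, 16.7 and 58.0 FPKM at 0, 3, 12 and 24 h. WRKY transcription factor 51 (r = 0.981), mitochondrial chaperone BCS1-B (r = 0.980) and the ubiquitin ligase U-box domain-containing protein 40 (r = 0.979) followed.

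For inorganic pyrophosphatase 3, the closest were a tricorner-type protein kinase (CsaV3_6G052620, r = 0.975), the vesicle protein bet1-like SNARE 1-1 (r = 0.973), lipoxygenase 6 (r = 0.973), ferredoxin--NADP reductase of the root type (r = 0.968) and a serine incorporator (r = 0.966). For transporter 5 they were the receptor kinase ZmPK1 (r = 0.977), scarecrow-like protein 1 (r = 0.977), subunit O of the chloroplast NAD(P)H-quinone oxidoreductase (r = 0.974), a receptor-like kinase (CsaV3_3G002160, r = 0.973) and FK506-binding protein 4 (r = 0.972). At r of 0.95 or above there were 16 candidates for the 2-like gene, 15 for inorganic pyrophosphatase 3, 16 for the kinase and 37 for the transporter. The choice depends on the measure: by Spearman's rank correlation, 1 of the 5 for the 2-like gene and 3 of the 5 for the kinase were again among the closest 5, and none for the other pair.

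**Figure D4:**
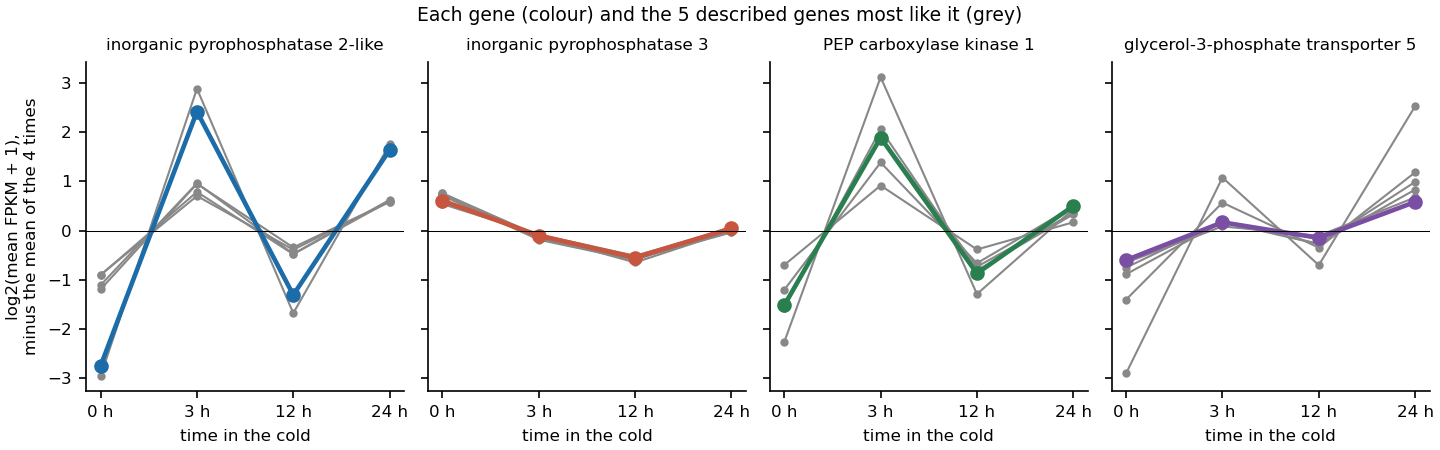
Group means of log2(mean FPKM + 1), centred on the mean of the 4 durations, for each of the 4 genes (thick coloured line) and the 5 described genes with the highest Pearson correlation to it over 12 libraries (grey). The lines run in parallel in direction but differ in size: of the genes like inorganic pyrophosphatase 2-like, GDPD1 (365 FPKM at 3 h) has swings of similar size and the other 4 have smaller ones.

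The wider pathways around the 4 genes moved about as often as the rest of the transcriptome. In lists of 157 genes, which leave out the 4, 136 were tested, and 63.2% of these changed at 3 h against 0 h, 67.6% at 12 h and 73.5% at 24 h (edgeR, adjusted p below 0.05), against 57.7%, 67.4% and 74.2% of all tested genes. At 3 h, 58 list genes rose and 28 fell, with a median log2 fold change of 0.25, against 0.00 over all tested genes. At 12 h, 51 rose and 41 fell, and at 24 h, 55 rose and 45 fell.

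Genes around glycerol-3-phosphate, the compound that the transporters are named for, formed a list of 26 tested enzymes that make, acylate or release it. Of these, 14 rose and 6 fell at 3 h and at 12 h, and 13 rose and 7 fell at 24 h. Of all tested genes, 29.4% rose and 28.3% fell at 3 h, 34.4% and 33.0% at 12 h, and 36.2% and 37.9% at 24 h. The median log2 fold change of the list was 0.38, 0.29 and 0.29 at the 3 durations, against 0.00, 0.00 and -0.03 over all tested genes, and whether the list differs from other genes was not tested. This list also holds acyltransferases of the next step and diacylglycerol kinases. GDPD1 (CsaV3_3G026730) had the largest change, with 365 ± 24.6 FPKM at 3 h, against 5.34 ± 0.741 FPKM at 0 h (log2 fold change 6.09, SE 0.34, edgeR adjusted p = 4.93e-08). Another gene of the same description (CsaV3_4G002900) had means of 7.13, 18.5, 5.68 and 6.87 FPKM at 0, 3, 12 and 24 h.

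The list of enzymes of PEP, pyruvate and malate, which lie next to PEP carboxylase, also took in 3-isopropylmalate dehydrogenase (CsaV3_4G001800). Of its 30 tested genes, 6 rose and 7 fell at 3 h, 6 rose and 14 fell at 12 h, and 5 rose and 15 fell at 24 h. Their median log2 fold changes were -0.11, -0.30 and -0.29, and several of them are malic enzyme genes of the same description on unplaced scaffolds, which may share reads and whose counts are uncertain. Chloroplast pyruvate kinase isozyme G (CsaV3_1G016950) rose at 12 h to 13.5 ± 1.24 FPKM, against 1.55 ± 0.150 FPKM at 0 h (log2 fold change 3.18, SE 0.18, edgeR adjusted p = 2.26e-08). Of 8 tested genes of the list named for sugar enzymes of pyrophosphate, which also took in sucrose synthases, 3 rose and 1 fell at 3 h. At 12 h 1 rose and 1 fell, and at 24 h 3 rose and 1 fell. The gene that fell at 12 h was sucrose synthase 2-like (CsaV3_4G000970, log2 fold change -0.87, SE 0.10, edgeR adjusted p = 1.30e-05). Among all tested genes, 29.4% rose and 28.3% fell at 3 h, 34.4% and 33.0% at 12 h, and 36.2% and 37.9% at 24 h. The alpha subunit of the pyrophosphate-dependent phosphofructokinase (CsaV3_4G037690) rose at 24 h to 53.0 ± 8.62 FPKM, against 31.5 ± 2.29 FPKM at 0 h (log2 fold change 0.81, SE 0.11, edgeR adjusted p = 2.49e-05).

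Of 9 tested phosphate transporters, 4 rose and 1 fell at 3 h, 5 rose and 4 fell at 12 h, and 5 rose and 2 fell at 24 h. PHO1 homolog 3-like (CsaV3_5G033010), of a family of phosphate exporters, had 24.5 ± 5.55 FPKM at 24 h, against 0.891 ± 0.161 FPKM at 0 h (log2 fold change 4.84, SE 0.17, edgeR adjusted p = 2.52e-10). Of 14 tested genes of the list named for phosphate sensing, which also took in inositol-pentakisphosphate kinases and glycerol-3-phosphate 2-O-acyltransferases, 6 rose and 3 fell at 3 h, 4 rose and 4 fell at 12 h, and 8 rose and 5 fell at 24 h. SPX domain-containing protein 1 (CsaV3_1G030190) rose at 3 h (log2 fold change 5.56, SE 0.32, edgeR adjusted p = 6.02e-08). SPX domain-containing protein 3 (CsaV3_6G009000) fell at 12 h (-1.29, SE 0.21, edgeR adjusted p = 1.53e-04). Glycerol-3-phosphate 2-O-acyltransferase 6 (CsaV3_3G034040) fell at 24 h (-3.63, SE 0.20, edgeR adjusted p = 8.61e-09). Of 13 tested purple acid phosphatases, which release phosphate from organic compounds, 7 rose and 2 fell at 3 h, 6 rose and 2 fell at 12 h, and 5 rose and 3 fell at 24 h. Among all tested genes, 29.4% rose and 28.3% fell at 3 h, 34.4% and 33.0% at 12 h, and 36.2% and 37.9% at 24 h. Whether any of these lists differs from other genes was not tested.

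Of 14 tested genes for lipid remodelling, by which phospholipids are broken down and galactolipids are made, 9 rose and 2 fell at 3 h, 9 rose and 3 fell at 12 h, and 8 rose and 5 fell at 24 h. This list also took in a gene described as patatin-like phospholipase domain-containing protein 2 (CsaV3_3G018910), and it holds no gene of sulfolipid synthesis. Phospholipase D p2 (CsaV3_2G006790) had 101 ± 11.7 FPKM at 3 h, against 3.21 ± 0.112 FPKM at 0 h (log2 fold change 4.97, SE 0.22, edgeR adjusted p = 9.30e-09). By 24 h its mean was 4.37 FPKM. Digalactosyldiacylglycerol synthase 1 (CsaV3_6G041120) fell at 24 h to 7.68 ± 1.22 FPKM, against 50.5 ± 2.92 FPKM at 0 h (log2 fold change -2.66, SE 0.12, edgeR adjusted p = 1.40e-09). Other galactolipid synthase genes of the list had higher means in the cold than at 0 h. Monogalactosyldiacylglycerol synthase 2 (CsaV3_2G003280) had means of 10.3, 219, 20.8 and 16.4 FPKM at 0, 3, 12 and 24 h. Digalactosyldiacylglycerol synthase 2 (CsaV3_3G009130) had 2.36, 16.9, 9.42 and 10.7 FPKM. Phosphocholine and phosphoethanolamine enzymes handle the compounds that Arabidopsis proteins of the type of the 2-like gene can dephosphorylate. Of the 9 tested, 1 rose and 3 fell at 3 h, and 1 rose and 4 fell at 12 h and at 24 h. The shares of all tested genes that rose and fell were 29.4% and 28.3% at 3 h, 34.4% and 33.0% at 12 h, and 36.2% and 37.9% at 24 h. Whether the lipid or the phosphocholine list differs from other genes was not tested. Phosphoethanolamine N-methyltransferase-like (CsaV3_1G004330) fell at 24 h to 10.6 ± 2.19 FPKM, against 41.9 ± 6.87 FPKM at 0 h (log2 fold change -1.93, SE 0.16, edgeR adjusted p = 3.36e-07).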

How the data were processed

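Messenger RNA of 12 cucumber leaf libraries was analysed from 1 deposited table. Trizol was used for RNA and an Illumina instrument for sequencing, per the series design text and the labels. The submitters' processing notes name cutadapt 1.9 and FastQC, and the series design text names HISAT2 and the CuGenDB cucumber genome for mapping. No source used here gives the counting tool, genome build or strand setting.

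The estimated counts per gene were deposited by the authors as whole numbers, per the file headers. Low values lie near multiples of 3.82, so 1 unit is not 1 fragment, and fragment numbers are estimates from that spacing. The FPKM values were deposited by the authors beside the counts, per the file headers, and 0.0001 stands for each of 61048 counts of 0 and was read as 0.

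Counts were tested with edgeR 4.0.16 (R 4.3.3) by the quasi-likelihood test with TMM scaling, in 1 fit of 12 libraries with a mean per duration. The test took genes at 1 FPKM or more in 3 or more libraries, 16432 genes with 99.84% of the counts, and left out 7885. All 4 genes passed. Benjamini-Hochberg adjusted p below 0.05 over all tested genes was called changed. The standard error is the absolute log2 fold change divided by the square root of F. The script was tested on simulated data. The lists are patterns on gene descriptions. Within each, the text names some of the genes fixed by rule: all genes of the families, and from each wider list the called gene of at least 5 FPKM with the largest change at a duration. The 4 genes and the lists were chosen with earlier results of these data known. Alternatives were median-of-ratios scaling, library totals, no filter, a mean of at least 5 FPKM, DESeq2 1.42.0, limma 3.58.1 on log2(FPKM + 1), a replicate block, only the groups compared, leaving out each library and, chosen after seeing the data, counts divided by their spacing. Plots were drawn with matplotlib 3.10.9.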

Additional observations from a re-analysis of the deposited data

How the results depend on the processing

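The 4 genes kept their direction in all 20 values (5 comparisons each) under every alternative run. Of 415 alternative values, 411 moved by less than the spread between replicates, the larger SD of log2 FPKM in the groups compared. The other 4 came from limma on log2(FPKM + 1), a scale that shrinks the changes of low genes: at 3 h against 0 h 5.18 for inorganic pyrophosphatase 2-like and 0.77 for transporter 5, which had 0.45 at 12 h and 1.18 at 24 h. Many of the 415 values came from fits without 1 library. Leaving out 1 of 3 libraries, or a library outside the comparison, can hardly move a value beyond that spread. The count of 411 is therefore no measure of stability. With a mean of at least 5 FPKM as the filter, transporter 5 was not tested. Counts of genes and of list genes called stayed within 1.5 times under all alternatives. Leaving out 1 library, the number of genes called lay between 8475 and 10215 at 3 h, 10189 and 11650 at 12 h and 11483 and 12221 at 24 h against 0 h. Same-numbered libraries of different durations deviated from their group means with correlations of -0.0719 to 0.09301, against -0.1091 to 0.1275 for differently numbered ones. With 3 libraries in each group, these values cannot tell whether same-numbered libraries share plants or a batch. A fit with the replicate number as a block called 9306, 10939 and 12063 genes, and the log2 fold change of inorganic pyrophosphatase 2-like at 3 h was 5.26.

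Signs turned only for related genes with changes near 0 that were not called in the fit of all 12 libraries. Soluble inorganic pyrophosphatase 6 (CsaV3_7G007250) at 24 h against 0 h had -0.00444 with limma, and -0.0256 to 0.123 when 1 library was left out. Transporter 1 (CsaV3_5G005700) at 24 h against 0 h had 0.0172 with median-of-ratios scaling and with DESeq2 and 0.00463 with the groups compared alone. It had -0.194 to 0.144 when 1 library was left out, above 0 without replicate 3 of 0 h (0.0367) or replicate 1 of 24 h. CsaV3_6G008400 at 12 h against 3 h had 0.00213 with no filter and -0.0545 to 0.0622 when 1 library was left out. CsaV3_5G028880 at 24 h against 12 h had -0.116 to 0.305 when 1 library was left out, and lay below 0 without replicate 2 or 3 of 24 h. Without replicate 1 of 24 h, at 0.305, it was called changed. The cause was not tested. Among the other named genes, 49 of 1863 alternative values lost the call and 7 gained it. Depth limits the precision of genes with few fragments, among them CsaV3_1G040240 and the kinase genes on the scaffold.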
